A study of Mus musculus with 4 samples.

Results

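Besides insulin, pancreatic islet cells express other hormone genes, of which Gcg (glucagon), Sst (somatostatin), Ppy (pancreatic polypeptide), Pyy (peptide YY) and Ghrl (ghrelin) are described here. These 5 genes were chosen by name out of the 32285 genes in the count tables, and were followed in their own cells, in insulin cells and in cells that held a second hormone. The study isolated islets from male C57BL6/N littermates that were either wild type (Pax4 WT) or homozygous for an arginine-to-histidine change in Pax4 corresponding to a human diabetes-associated variant (Pax4 HH). Islets were taken at 12 weeks of age on standard chow diet (SCD) or at 16 weeks of age after 4 weeks of high-fat diet (HFD), so diet and age cannot be told apart. Each of the 4 groups, WT SCD, HH SCD, WT HFD and HH HFD, is 1 library from the pooled islets of a few mice. The change is carried in every cell of the HH animals, not only in islets, and no genotype difference has a replicate check. The intervals given below are 95% counting intervals of these libraries and do not cover the spread between mice.

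Glucagon is the alpha cell hormone that raises hepatic glucose output, and somatostatin from delta cells restrains the release of insulin and glucagon. Pancreatic polypeptide and peptide YY belong to the same peptide family and are encoded by neighbouring genes. The former defines PP cells, and the latter is made by several islet cell types and by endocrine cells of the gut. Ghrelin, a hormone mainly of the stomach, marks the rare epsilon cells of the islet. Pax4 is a transcription factor of beta and delta cell fate.

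In the GRCm38.p6 assembly Gcg lies at chr2:62474530-62483653, Sst at chr16:23889573-23891342 and Ghrl at chr6:113716119-113719911. Ppy, at chr11:102099931-102101319, and Pyy, at chr11:102106676-102107832, are separated by 5356 bases. The 120 bases before the transcription start are shown for the neighbours Ppy and Pyy, whose levels moved together over cell classes, and for Gcg, whose level in insulin cells was followed most closely. They come from RefSeq (GRCm38.p6, minus strand, written 5′ to 3′), with matches to TATAAA on either strand in capitals. That motif occurred in 6.34% of 32851 promoter stretches of the same length.
Gcg, chr2:62483654-62483773: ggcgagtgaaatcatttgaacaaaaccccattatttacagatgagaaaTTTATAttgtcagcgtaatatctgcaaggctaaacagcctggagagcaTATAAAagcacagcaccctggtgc
Ppy, chr11:102101320-102101439: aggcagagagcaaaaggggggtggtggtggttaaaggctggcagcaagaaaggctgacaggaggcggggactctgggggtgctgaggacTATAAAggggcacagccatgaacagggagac
Pyy, chr11:102107833-102107952: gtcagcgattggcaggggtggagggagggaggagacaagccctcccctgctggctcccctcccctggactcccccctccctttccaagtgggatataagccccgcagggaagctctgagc
Gcg held 2 matches and Ppy 1, and these letters were not in the Pyy stretch.

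The libraries held 4665 to 7123 barcodes and 68011082 to 104810105 UMIs (unique molecular identifiers, each counting 1 captured RNA molecule), and 21 to 29 barcodes of a library (0.407% to 0.514%) also occurred in another library. A filter on cells kept 61.6% to 67.8% of barcodes in 3 libraries and 38.3% in WT HFD. Clusters were named from marker genes that include the hormones themselves, so a hormone's level between classes is a description and carries no test. Endocrine-like cells numbered 2872 (WT) and 2940 (HH) on SCD and 1651 and 3809 on HFD. In beta-like cells all 9 beta cell markers were above 0 in every library. Delta-like cells held 6 of 7 delta markers and PP-like cells 6 of 8 PP markers in every library. Beta-like cells of the groups sat in different clusters: in SCD clusters 1 and 2 held 657 and 608 WT but 409 and 391 HH cells and cluster 5 held 573 and 1005, and in HFD cluster 19, led by Dapl1 and Aldh1a3, held 132 WT and 1594 HH cells. Of the alpha-like cells, cluster 4 held 361 and 432 in WT and HH SCD and 3 in each HFD library, and cluster 13 held 284 and 493 in WT and HH HFD.

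Each abundant hormone made up a large and similar part of the RNA of its own cells in all 4 libraries. Gcg, in alpha-like cells, was at 295232 and 282127 UMIs per 1000000 UMIs of the class (CPM) on SCD for WT and HH, and at 339145 and 319012 on HFD. The highest and lowest of these differ by less than 1.5-fold, and HH was below WT in both diets. Sst, in delta-like cells, was at 179632, 180796, 179003 and 178646 CPM in the same order. These Sst levels are the most even of the 4 hormones. Ppy, in PP-like cells, was at 381296, 385915, 357490 and 395705 CPM. Pyy, also in PP-like cells, was at 118255, 119575, 113288 and 99982 CPM, lowest in HH HFD.

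**Figure D1:**
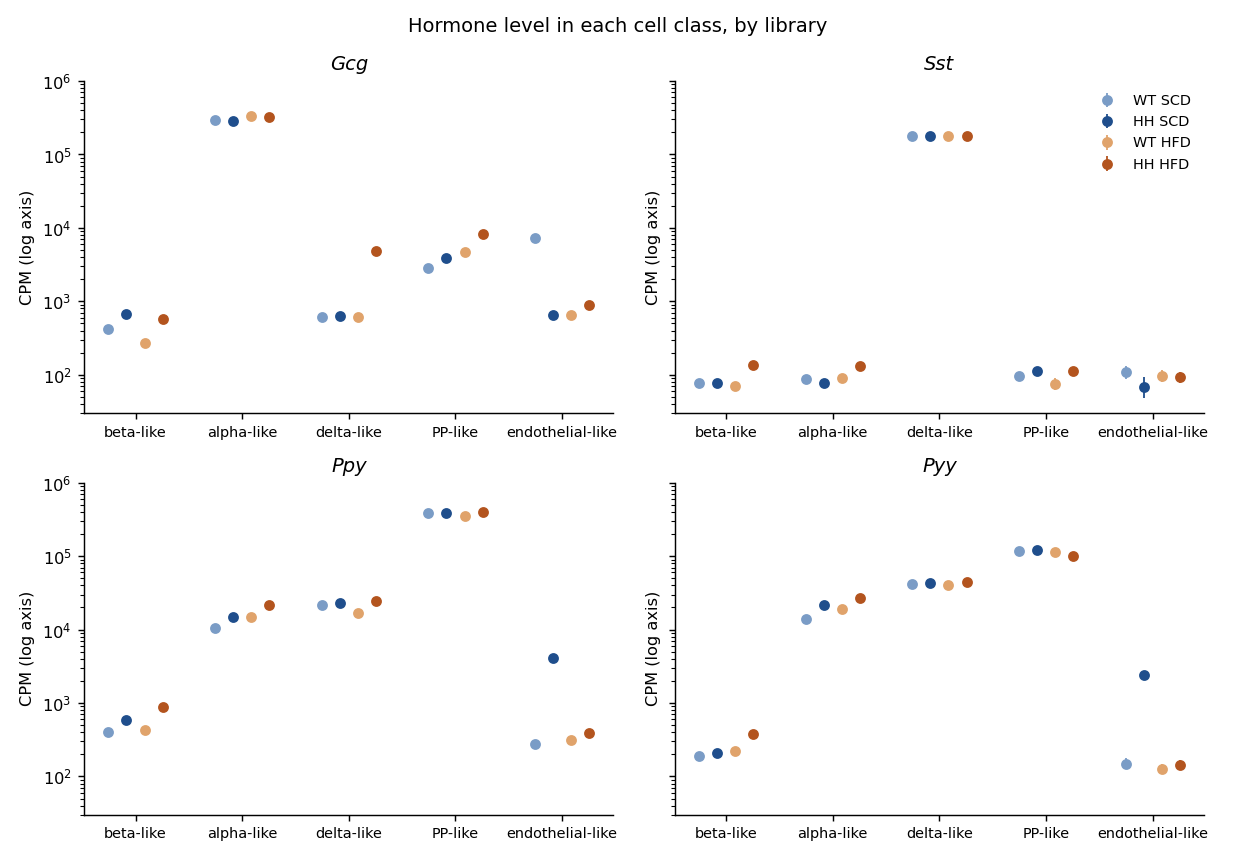
Level of Gcg, Sst, Ppy and Pyy in CPM (log axis) in the beta-like, alpha-like, delta-like, PP-like and endothelial-like cells of each library. Each point is 1 library and bars are 95% Poisson intervals, mostly smaller than the point; Gcg and Sst stand far above every other class in alpha-like and delta-like cells, while Ppy and Pyy are also high in alpha-like and delta-like cells.

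The genotypes were compared within each diet. A gene was tested when it had 20 or more UMIs over both libraries, and called when HH and WT differed by 1.5-fold or more with an exact conditional interval of the ratio that did not include 1, a rule of size in these libraries and no test of genotype. In their own cells none of the 4 abundant hormones was called in either diet. The log2 ratio of Gcg in alpha-like cells was -0.07 (interval -0.07 to -0.06) in SCD and -0.09 in HFD, where 2.54% of 11093 and 2.83% of 11000 genes were called. For Sst in delta-like cells it was 0.01 (0.0042 to 0.0144) in SCD and -0.0029 (-0.0092 to 0.0035) in HFD, with 3.03% of 11117 and 3.61% of 10532 genes called. Ppy in PP-like cells had 0.02 in SCD and 0.15 (0.14 to 0.15) in HFD, and Pyy had 0.02 and -0.18 (-0.19 to -0.17), with 3.66% of 8558 and 4.63% of 8965 genes called. Ghrl had no class of its own. By rule it was placed in beta-like cells, the endocrine-like class with its highest level over all libraries, and its 1 call, in SCD, is the value given with those cells below.

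Within a class, single cells varied more than libraries did. After thinning each cell to 3000 UMIs, the median alpha-like cell gave 30.3% of its UMIs to Gcg in WT SCD, with 19.3% at the 10th and 37.7% at the 90th percentile. In HH HFD the same 3 values were 32.2%, 17.2% and 42.2%. Sst took 17.6% of the UMIs of the median delta-like cell in WT SCD and 17.4% to 18.0% in the other libraries. Ppy took 37.4% to 39.8% of UMIs in the median PP-like cell of the 4 libraries. PP-like cells without either Pyy or Gcg at 1% or more were few, 6, 3, 5 and 1 cells in the order WT SCD, HH SCD, WT HFD and HH HFD.

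The hormones differed in how far they were restricted to 1 class. Of all Gcg UMIs of a library, counted over every barcode, 77.7% to 87.2% lay in alpha-like cells and at most 1.88% in beta-like cells, with 11.7% to 18.7% in barcodes that were not kept. For Sst 75.6% to 91.0% lay in delta-like cells. For Ppy 64.3% to 76.7% lay in PP-like cells, with 5.55% to 8.30% in alpha-like and 3.94% to 7.61% in delta-like cells. Pyy was spread most widely: 38.6% to 46.1% of its UMIs lay in PP-like cells, 17.4% to 28.5% in delta-like cells and 14.3% to 21.9% in alpha-like cells.

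Ppy and Pyy followed each other across classes. Over 28 sums of cells of 1 class and library, log2(CPM + 10) of Ppy and Pyy had a Pearson correlation of 0.94, while Gcg with Sst had -0.20 and Gcg with Pyy 0.43. These points share libraries and the 2 genes help to define the PP-like class, so the value is a description. Among single PP-like cells the rank order of Ppy and Pyy did not run together, with Spearman correlations of -0.11, -0.17, 0.05 and -0.22 over 110, 131, 68 and 171 cells. On log2 values of the same cells Pearson correlations were 0.90, 0.71, 0.89 and 0.44, with 5, 3, 5 and 1 PP-like cells below 1% of UMIs for each of the 5 non-insulin hormones. In delta-like cells Sst and Ppy ran against each other, with Spearman correlations of -0.40, -0.35, -0.33 and -0.46 and Pearson correlations of log2 values of -0.34, -0.18, -0.33 and -0.38 over 332, 349, 160 and 296 cells.

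The genes most like each hormone over these 28 sums were as follows, among 5825 genes. For Sst they were Ly6h (Pearson correlation 0.97), Ptprz1 (0.96), Dpp6 (0.96), Cela1 (0.95) and Shisal2b (0.95), and their levels were 119.7 CPM or more in every delta-like sum and 31.22 CPM or less elsewhere. For Gcg they were Wnk3 (0.86), Tmsb15b2 (0.83), Tmsb15b1 (0.81), Slc7a2 (0.80), which carries cationic amino acids, and Ttr (0.80), a thyroid hormone and retinol carrier. Tmsb15b1 and Tmsb15b2 are near-identical copies, so the split of reads between them is uncertain. For Ppy they were Tspan8 (0.86), Folr1 (0.82), Calb1 (0.82), Hist3h2ba (0.79) and Snhg4 (0.78). Pyy shared 4 of these, with Calb1 (0.93), Scn3a (0.90), Snhg4 (0.90), Hist3h2ba (0.90) and Folr1 (0.90). Calb1 encodes the calcium buffer calbindin, and it was at 180 to 229 CPM in PP-like cells and up to 215 CPM in another class.

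Many alpha-like cells carried Pyy, and more did so in HH than in WT in both diets. A cell was counted when 1% or more of its thinned UMIs came from the gene. Of 409 alpha-like cells of WT SCD, 119 carried Pyy, or 29.1% (exact Clopper-Pearson interval 24.7% to 33.8%), against 204 of 478, or 42.7% (38.2% to 47.3%), in HH SCD. In HFD 125 of 287 WT cells carried it, or 43.6% (37.7% to 49.5%), against 290 of 496 HH cells, or 58.5% (54.0% to 62.8%). The WT and HH intervals do not overlap in either diet, but cells of 1 library are not replicates, so this compares libraries. By summed UMIs Pyy in alpha-like cells was at 14147, 21737, 18962 and 27086 CPM, a log2 ratio of HH over WT of 0.62 (interval 0.61 to 0.63) in SCD, which was called, and 0.51 (0.50 to 0.53) in HFD, which fell short of the call. The order WT below HH within each diet also held at limits of 0.3% and of 3% of UMIs, where the shares were 47.4%, 63.6%, 66.2% and 77.6%, and 13.0%, 21.5%, 15.3% and 29.8%.

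Ppy in alpha-like cells was nested within the Pyy cells. Ppy at 1% or more was found in 51, 82, 54 and 128 alpha-like cells in the order WT SCD, HH SCD, WT HFD and HH HFD, and 46, 78, 48 and 123 of them carried Pyy too. As a share of alpha-like cells, Ppy was carried by 12.5% (9.43% to 16.1%), 17.2% (13.9% to 20.8%), 18.8% (14.5% to 23.8%) and 25.8% (22.0% to 29.9%). The SCD intervals overlap and so do those of HFD. By summed UMIs Ppy was at 10618, 14980, 14960 and 21527 CPM, with log2 ratios of 0.50 in SCD and 0.53 (interval 0.51 to 0.54) in HFD. Alpha-like cells with both hormones gave a median of 28.5%, 23.2%, 24.3% and 26.0% of UMIs to Gcg, against 30.3%, 29.9%, 33.7% and 33.9% in alpha-like cells with neither. They also held more UMIs, with medians of 14329, 12340, 17403 and 10436 against 11682, 10309, 14860 and 9178. Their median Scrublet doublet score was 0.0166, 0.0131, 0.00584 and 0.0156 against 0.00693, 0.00841, 0.00504 and 0.00914, and the part of doublets in these cells was not tested further than by keeping all doublets, where the Pyy shares were 30.5%, 42.3%, 42.6% and 57.7%.

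**Figure D2:**
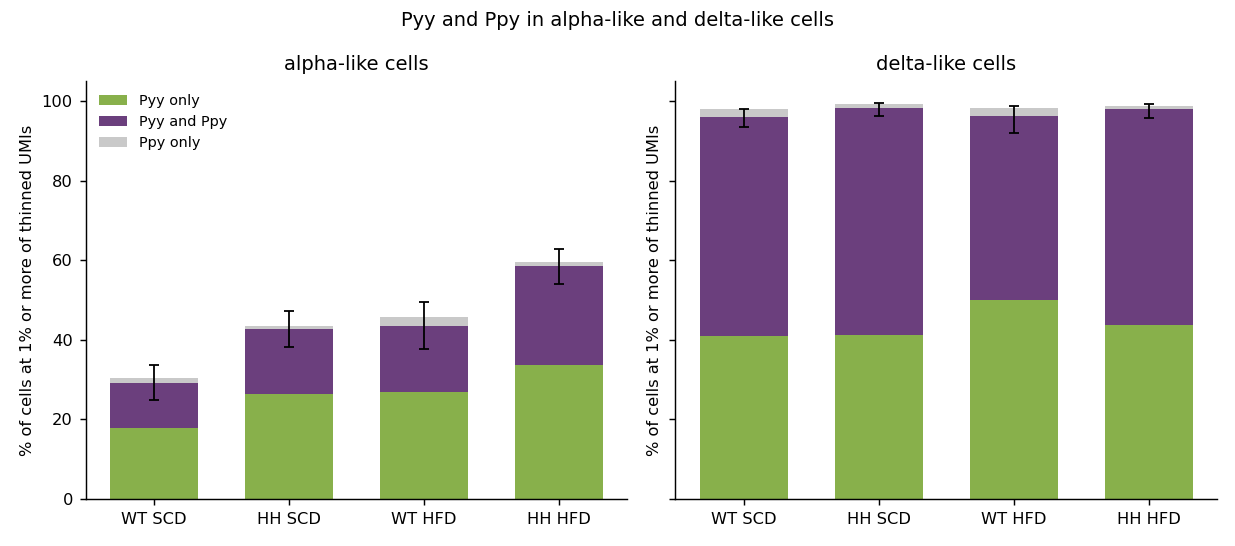
Share of alpha-like (left) and delta-like (right) cells of each library with Pyy only, Pyy and Ppy, or Ppy only at 1% or more of UMIs after thinning to 3000. Black bars are 95% Clopper-Pearson intervals of the share with Pyy; in alpha-like cells that share is 29.1% and 42.7% in WT and HH SCD and 43.6% and 58.5% in WT and HH HFD, and in delta-like cells it is above 96% in each library.

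Nearly all delta-like cells carried Pyy, in every library. On SCD the share was 96.1% (interval 93.4% to 97.9%) for WT and 98.3% (96.3% to 99.4%) for HH, and on HFD it was 96.3% (92.0% to 98.6%) and 98.0% (95.6% to 99.3%), with overlapping intervals within each diet. Ppy was carried by 56.9%, 57.9%, 48.1% and 55.1% of delta-like cells, again with overlapping intervals. The levels of Pyy in delta-like cells were 41459, 42902, 40456 and 44832 CPM and those of Ppy 21446, 23376, 16610 and 24446 CPM. In HFD the log2 ratio of Ppy was 0.56 (interval 0.54 to 0.58), below the 1.5-fold used for a call.

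Glucagon met Ppy and Pyy often but Sst almost never. Among endocrine-like cells with Gcg at 1% or more, those that also carried Sst were 1 of 414 and 0 of 489 on SCD (WT, HH) and 0 of 290 and 3 of 519 on HFD. By contrast 120, 207, 128 and 310 of these Gcg cells carried Pyy. With 3 cells of the total as the limit for a count of 0, the share could reach 0.613% of the Gcg cells in HH SCD and 1.03% in WT HFD. An exact Clopper-Pearson interval reaches somewhat higher than this limit. PP-like cells with Gcg at 1% or more were 2 of 110, 7 of 131, 5 of 68 and 18 of 171, or 1.82%, 5.34%, 7.35% and 10.5%, with overlapping intervals in both diets. These cells gave a median of 16.5%, 25.3%, 27.2% and 28.3% of their UMIs to Ppy, below the 39.5%, 39.8%, 38.6% and 41.0% of PP-like cells with Pyy and no Gcg.

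Insulin (Ins1 plus Ins2) was at 1% or more of thinned UMIs in 53.5%, 32.0%, 30.7% and 45.2% of alpha-like cells. Endothelial-like cells, which do not make insulin, reached the limit more often, in 81.9%, 49.4%, 74.7% and 63.5% of cells. At this limit an insulin share in alpha-like cells was thus not above that of cells that do not make the hormone. At 3% of UMIs the alpha-like shares were 7.33%, 8.996%, 0.348% and 2.82% and the endothelial-like 19.7%, 5.62%, 8.22% and 4.69%, with overlapping intervals in HH SCD, where alpha-like cells were higher. Median depth was 12245, 11020, 16028 and 9963 UMIs in alpha-like and 6104, 5812, 7127 and 6061 in endothelial-like cells.

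The level of the non-insulin hormones in beta-like cells by genotype was compared next. In SCD 2 of the 5 hormones, Gcg and Ghrl, were called, both higher in HH, against 2.64% of the 13695 genes tested in beta-like cells. In HFD 4 of the 5 hormones were called, all higher in HH, against 8.07% of 13778 genes, and Ghrl had too few UMIs to be tested. In endothelial-like cells the HFD log2 ratios were 0.47 (0.33 to 0.60) for Gcg and 0.30 (0.10 to 0.50) for Ppy. They were 0.20 (-0.12 to 0.52) for Pyy and -0.07 (-0.46 to 0.31) for Sst, and none was called there. Sst in HFD was at 0.54 in alpha-like and 0.58 in PP-like cells, short of the call. How far the beta-like values share this was not tested. Summed markers of some other cell types were also higher in the beta-like cells of HH HFD than of WT HFD, at 26.1 against 6.596 CPM for 7 endothelial markers (7 above 0 in every library) and 60.0 against 9.69 CPM for 8 lymphocyte markers (3 above 0 in every library), and their part in the hormone levels was not tested. The 7 macrophage markers were at 39.4 against 47.3 CPM. Acinar markers, at 1.33 against 2.53 CPM, and Schwann markers, at 9.85 against 10.5, were also lower in HH HFD. Ductal markers were at 315 against 305 CPM and stromal markers at 3.10 against 1.80. The median log2 ratio of all genes tested was -0.09 in SCD and -0.13 in HFD. Among the 5 hormones no value below the WT level passed the rule in either diet.

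Gcg in beta-like cells was at 420 CPM in WT and 662 in HH on SCD, and at 271 and 566 on HFD. The log2 ratio was 0.66 (interval 0.63 to 0.68) in SCD and 1.06 (1.03 to 1.10) in HFD. Part of this lay in few cells: the 1% of beta-like cells highest in Gcg held 26.6% and 45.2% of its UMIs in WT and HH on SCD and 5.32% and 27.2% on HFD. Without these cells the log2 ratio was 0.23 in SCD, below the call, and 0.69 in HFD. The SCD ratio also fell short of the call with doublets kept, at 0.10, with classes from the leading hormone, at 0.39, and without clusters 15 and 16, at 0.36. The median beta-like cell held 8, 9, 7 and 10 Gcg UMIs. The median endothelial-like cell held 4, 3, 5 and 4, in a cell type that does not make glucagon. Gcg was found in 99.7% or more of beta-like and 96.1% to 99.5% of endothelial-like cells, so a Gcg UMI in a cell is no sign of expression there. Summed endothelial-like levels were led by single cells in some libraries: 1 cell held 66.0% of the Gcg UMIs of WT SCD, and 1 cell each held 92.6% of the Ppy and 96.2% of the Pyy UMIs of HH SCD.

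Ppy in beta-like cells was at 409, 582, 423 and 881 CPM in the same order. Its log2 ratio was 0.51 (interval 0.48 to 0.53) in SCD, short of the call, and 1.06 (1.03 to 1.09) in HFD. The 1% of cells highest in Ppy held 66.5% to 69.8% of its UMIs in the 4 libraries. Without these cells the ratio was 0.66 in SCD and 1.01 in HFD, so in SCD it passed 1.5-fold once they were removed. The median beta-like cell held 3, 5, 4 and 6 Ppy UMIs and the median endothelial-like cell 1, 2, 2 and 2. In SCD the value depended on the cells admitted: it was -0.01 with a looser filter on cells and 1.01 with doublets kept.

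Pyy in beta-like cells was at 192, 206, 222 and 374 CPM, with log2 ratios of 0.11 (interval 0.07 to 0.15) in SCD and 0.75 (0.71 to 0.79) in HFD. The HFD value fell short of the call with equal weight for each cell, at 0.53. It was 0.57 after subtracting endothelial-like UMIs per cell, where mean UMIs per cell are compared without scaling to depth. Those means were 6.64 (WT) and 9.30 (HH) before and 5.61 and 8.34 after the subtraction. The step from 0.75 to 0.57 is thus not the effect of the subtraction alone. The 1% of cells highest in Pyy held 63.5% to 73.5% of its UMIs, and the ratios without them were 0.57 and 1.08. Sst in beta-like cells was at 77.4, 76.3, 69.7 and 137 CPM, with log2 ratios of -0.02 (interval -0.08 to 0.04) in SCD and 0.97 (0.91 to 1.04) in HFD. The SCD value of Sst took either sign among the alternatives, from -0.47 with equal weight for each cell to 1.48 with classes taken from each cell's leading hormone. Median Sst was 1, 1, 1 and 2 UMIs per beta-like cell, and 1, 0, 1 and 0 per endothelial-like cell. Without clusters 15 and 16, left out after their hormone levels were seen, Sst in HFD fell short of the call at 0.41, while Gcg, Ppy and Pyy were at 0.68, 1.30 and 0.92. With doublets kept the HFD ratios of Gcg, Sst, Ppy and Pyy were 2.40, 2.76, 1.995 and 1.43.

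**Figure D3:**
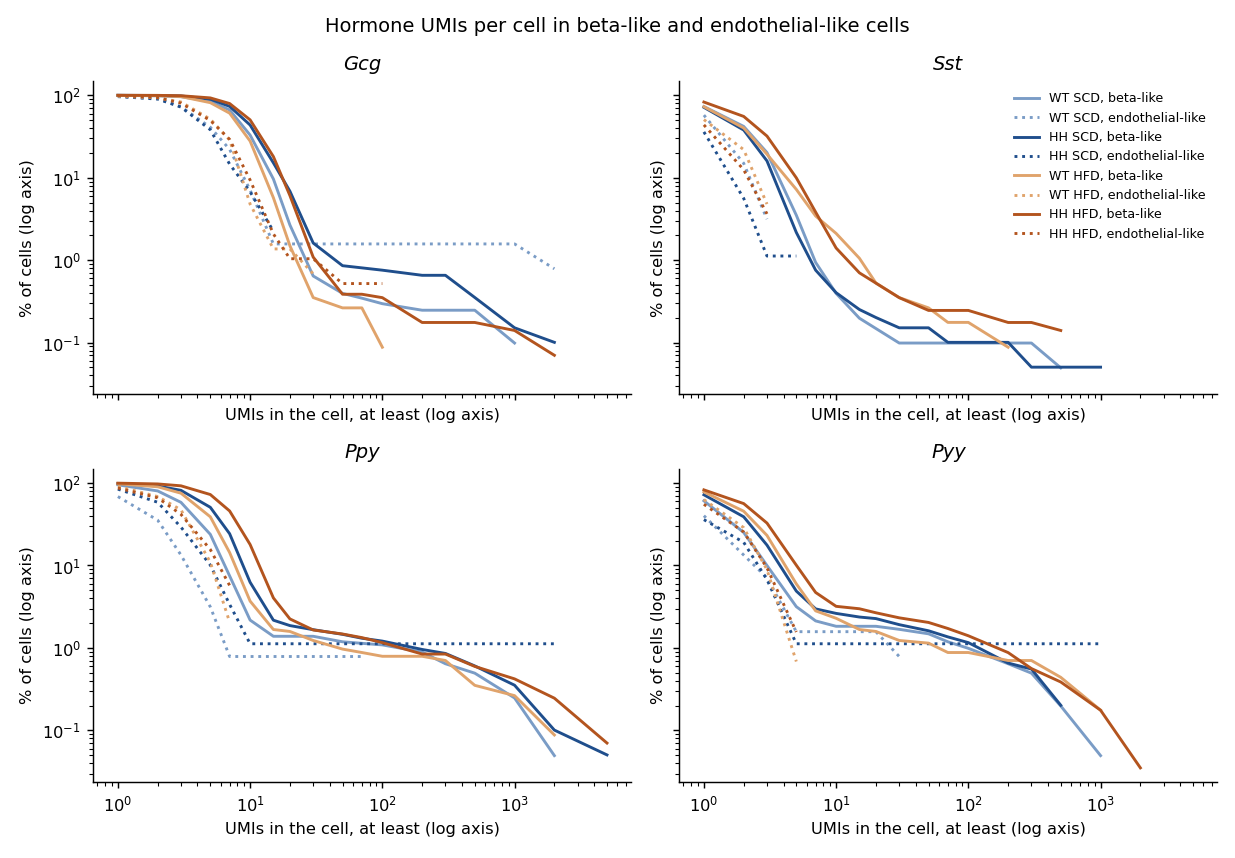
Share of cells (log axis) holding at least a given number of UMIs (log axis) of Gcg, Sst, Ppy and Pyy, in beta-like (solid lines) and endothelial-like (dotted lines) cells of each library. The bulk of beta-like cells lies at a few UMIs, at medians of 7 to 10 for Gcg and 3 to 6 for Ppy, and the highest single beta-like cell reaches 107 to 4392 UMIs of Gcg and 3057 to 6616 of Ppy.

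Insulin and its partner Iapp (amylin) are given for comparison in beta-like cells. On SCD Ins1, Ins2 and Iapp had log2 ratios of 0.08, 0.02 and 0.05, and on HFD of -0.0021, -0.02 and 0.53, none of them called.

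**Figure D4:**
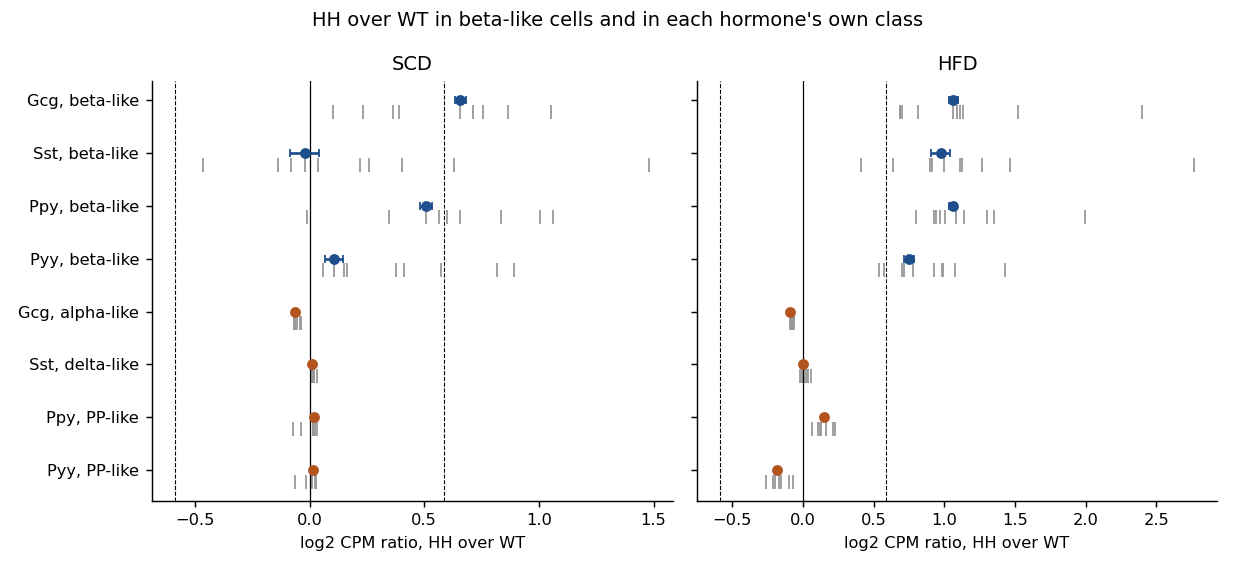
Log2 ratio of CPM, HH over WT, of Gcg, Sst, Ppy and Pyy in beta-like cells (blue) and in each hormone's own class (orange), for SCD (left) and HFD (right). Points are the reported values with 95% counting intervals, grey ticks are the values under the alternatives and dashed lines mark 1.5-fold; in beta-like cells the 4 HFD values lie between 0.75 and 1.06, and in their own classes all values lie between -0.18 and 0.15.

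Beta-like cells with a second hormone at 1% or more of thinned UMIs were rare in all libraries. They numbered 26 of 2021 in WT SCD, or 1.29% (interval 0.842% to 1.88%), and 37 of 1982 in HH SCD, or 1.87% (1.32% to 2.56%). In HFD they were 11 of 1136 WT cells, or 0.968% (0.484% to 1.73%), and 45 of 2846 HH cells, or 1.58% (1.16% to 2.11%). HH was higher in both diets, with overlapping intervals. Endothelial-like cells gave 3 of 127, 1 of 89, 0 of 146 and 1 of 192, or 2.36%, 1.12%, 0 and 0.521%, with intervals that overlap those of beta-like cells in every library. With 0 to 3 endothelial-like cells a difference from this background was not resolved. Macrophage-like cells varied more, with 2 of 17, 1 of 9, 0 of 48 and 19 of 49 cells at the limit, or 38.8% in HH HFD. Among 146 cells a count of 0 allows a share of up to 2.05% (3 cells of the total), and its Clopper-Pearson interval reaches 2.495%. With doublets kept the beta-like shares were 2.84%, 4.09%, 1.22% and 4.59%, with HH again above WT in both diets.

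**Figure D5:**
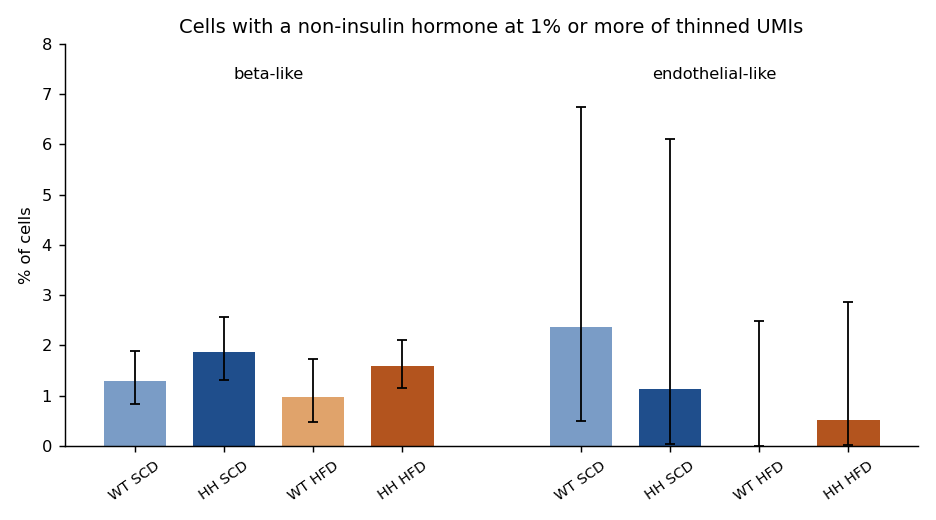
Share of beta-like (left) and endothelial-like (right) cells of each library with Gcg, Sst, Ppy, Pyy or Ghrl at 1% or more of UMIs after thinning to 3000, with 95% Clopper-Pearson intervals. Beta-like shares lie between 0.968% and 1.87%, and the wider endothelial-like intervals overlap theirs.

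The second hormone was mostly Ppy or Pyy. Ppy was carried by 18, 21, 9 and 28 beta-like cells and Pyy by 14, 13, 8 and 31, in the order WT SCD, HH SCD, WT HFD and HH HFD. Gcg was carried by 5, 13, 0 and 6 cells and Sst by 2, 1, 0 and 5. Cells with a second hormone were not deeper than the rest, with medians of 21381, 20221, 18672 and 15272 UMIs against 26419, 26249, 29884 and 24295. Their median Scrublet scores were 0.0284, 0.0343, 0.0193 and 0.0432 against 0.0308, 0.0307, 0.0206 and 0.0453 in the other beta-like cells. The few cells with Gcg scored higher than the other beta-like cells, with medians of 0.0502, 0.0411 and 0.0884 in WT SCD, HH SCD and HH HFD. Those with Sst were at 0.0297, 0.0679 and 0.130, above the other cells in both HH libraries, and the part of doublets in them was not tested.

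These cells gathered in cluster 15, a small beta-like cluster led by Cpb2, Opcml and Car15. It held 3.61%, 3.28%, 1.76% and 2.42% of beta-like cells of the libraries, but 19 of 26, 17 of 37, 9 of 11 and 33 of 45 of the cells with a second hormone. Its Ppy level was 9482, 8776, 10844 and 25223 CPM and its Pyy level 4602, 4170, 9767 and 10645 CPM. A minority of its cells carried these levels: 26.0%, 26.2%, 45% and 47.8% held a second hormone, and the median cell had 5, 7, 37 and 12 Ppy UMIs against means of 206, 169, 237 and 413. In the larger beta-like clusters 1, 2, 3, 5 and 12, Ppy was at 109 to 350 CPM wherever a library had at least 20 cells, and in cluster 19 it was at 131 (WT) and 399 (HH) CPM on HFD. The clustering used the hormone genes, so this is a description of where the cells lie. Without clusters 15 and 16, cluster 16 being led by cell cycle genes, the shares of beta-like cells with a second hormone were 0.309%, 0.895%, 0.090% and 0.258%. In cluster 19, which is mostly HH HFD, Gcg was at 246 (WT) and 391 (HH) CPM, and 0 and 0.439% of cells had a second hormone.

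Gcg in delta-like cells stood out in HH HFD, but rested on 3 cells. It was at 610, 624, 613 and 4879 CPM, a log2 ratio of 2.99 (interval 2.91 to 3.08) in HFD. The 3 delta-like cells of HH HFD with Gcg at 1% or more held 83.4% of its Gcg UMIs, and the highest of them held 5088 of 12184. Without those cells HH HFD was at 831 CPM and the ratio was 0.44 (0.34 to 0.54). Ins1 and Ins2 were also higher there, with log2 ratios of 0.99 and 0.91. In PP-like cells Gcg was at 2878, 3933, 4709 and 8280 CPM, with a called log2 ratio of 0.81 (0.78 to 0.85) in HFD, and the cells at 1% or more held 78.4%, 85.1%, 90.9% and 92.7% of these UMIs. Without them the PP-like ratio was -0.04 in SCD and 0.54 (0.41 to 0.67) in HFD. Endothelial-like cells of the same HFD libraries had a Gcg log2 ratio of 0.47 (0.33 to 0.60). That interval overlaps those of both remainders, so they are not particular to delta-like and PP-like cells.

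Ghrelin came almost entirely from 2 barcodes. Over all barcodes Ghrl had 1 UMI in WT and 4123 in HH on SCD, and 296 and 3 on HFD. In HH SCD 4070 of these, or 98.7%, lay in a single barcode, where they made up 10.5% of 38828 UMIs beside 4560 Ins1 and 11141 Ins2 UMIs. In WT HFD 288, or 97.3%, lay in a single barcode with 13996 UMIs, which also held 3116 Sst and 242 Pyy UMIs but 37 Ins1 UMIs. No other barcode of any library held more than 2 Ghrl UMIs, so the libraries hold Ghrl at such a level beside insulin in the first case and beside somatostatin in the second. Both barcodes passed the cell filter and were removed as doublets, with Scrublet scores of 0.174 and 0.0611.

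The remaining Ghrl UMIs were scattered. In HH SCD 53 UMIs lay in 52 other barcodes, against 8 UMIs in 8 barcodes in WT HFD and 2 UMIs in 2 barcodes in HH HFD outside the highest. Beta-like cells held 1, 40, 5 and 0 of them, and in SCD this gave the call of a log2 ratio of 5.37 (interval 2.81 to 10.71). The 40 UMIs of HH SCD come from the library with the barcode of 4070, and no beta-like cell of it held more than 2. The other endocrine-like classes of HH SCD held Ghrl UMIs too, 3 in alpha-like (0.552 CPM), 1 in delta-like (0.305 CPM) and 1 in PP-like cells (0.454 CPM), against 0.758 CPM in beta-like cells. Endothelial-like cells held 0 in all libraries, but with 89 to 192 cells each they were too few to set a background for so rare a count. Mboat4, the enzyme that acylates ghrelin, had 1 to 6 UMIs in the beta-like cells of each library and was not tested.

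Other genes of hormone processing, hormone receptors and islet hormone transcription were followed with a list of 37 genes. In beta-like cells 23 were tested in SCD, of which none was called lower, and 24 in HFD, of which 2 were called higher and 1 lower, beside 8.07% of all genes called in HFD. The median log2 ratio of the list was -0.06 in SCD and -0.09 in HFD, near those of all genes tested, -0.09 and -0.13. Those called in HFD were Hhex, a delta cell factor, at 0.177 and 0.466 CPM (6 and 33 UMIs, log2 ratio 1.40, interval 0.13 to 2.95), Etv1 at 18.3 and 31.4 CPM (0.78, 0.65 to 0.91) and Gipr, the incretin receptor for GIP, at 33.5 and 20.1 CPM (-0.74, -0.85 to -0.62). None of the 7 processing genes tested in beta-like cells was called in either diet. Pcsk1 and Pcsk2, the prohormone convertases, had log2 ratios of -0.04 and 0.05 in SCD and 0.12 and -0.01 in HFD there.

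In alpha-like cells 25 genes of the list were tested in each diet. In SCD, beside 2.54% of all genes tested, 0 were called higher and 2 lower, the receptors Glp1r, at 6.40 and 3.50 CPM (log2 ratio -0.87, interval -1.77 to -0.02), and Sstr2, the somatostatin receptor of alpha cells, at 26.2 and 17.3 CPM (-0.60, -0.99 to -0.21). In HFD, beside 2.83% of all genes, none was called, and Sstr2 was at 21.7 and 24.2 CPM. In delta-like cells 22 were tested in SCD and 23 in HFD, and the beta cell factor Nkx6-1 was the single gene called in each, beside 3.03% and 3.61% of all genes, lower in SCD at 10.0 and 5.50 CPM and higher in HFD at 6.47 and 14.4 CPM. In PP-like cells 21 and 20 were tested, beside 3.66% and 4.63% of all genes called, with Pcsk1 called higher in SCD at 20.7 and 32.7 CPM and Nkx6-1 called lower in HFD at 108 and 62.1 CPM. The Glp1r, Nkx6-1 (delta-like) and Pcsk1 calls rest on 13 to 72 UMIs a library.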

How the data were processed

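Single-cell RNA libraries (10x 3′ v3.1) were made from islets pooled from a few mice per group. The authors deposited UMI counts per gene and barcode from Cell Ranger 6.0 on mm10, filtered to cell-like barcodes. Counts at the 3′ end do not scale with gene length.

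Barcodes with 3000 to 50000 UMIs, 2000 to 5000 genes and at most 10% mitochondrial UMIs were kept. Scrublet scores (scanpy 1.11.5) marked too few doublets at their automatic threshold, so the highest scores were removed at 0.8% per 1000 cells (81, 80, 33 and 154). Cells were clustered jointly (3000 variable genes, 30 principal components, 20 neighbours, Leiden resolution 1) and named from marker lists. Counts were summed per class and library and given as CPM with exact Poisson intervals. Genes with 20 or more UMIs over WT and HH were tested, and a call needed 1.5-fold and a 95% interval that did not include 1. Shares of cells used cells thinned to 3000 UMIs, which no kept cell fell below, with exact Clopper-Pearson intervals. All intervals and limits cover counting error only. Ratios and their intervals were tested on simulated counts. The mean percent of UMIs from each hormone gene was checked before against after thinning in alpha-like cells. The share of cells at a limit was not checked in this way. With 1 library per group there is no test between groups.

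The genes named were the 5 hormones, Ins1, Ins2, Iapp, the 5 genes most correlated with each of Gcg, Sst, Ppy and Pyy (pseudocount 10, mean of 20 CPM or more, sums of 20 or more cells), and those called in a fixed list of 37 genes, of which the result of 1 gene is not reported here. Members, lists and rules were chosen with earlier results of these data known. Alternatives were other filters, doublets, clustering, scaling, weights, limits and thresholds. The alternative without clusters 15 and 16 was chosen after seeing the data.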

Additional observations from a re-analysis of the deposited data

Results flagged for a closer look

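Pyy in PP-like cells had HH over WT in opposite directions in the 2 diets, with both counting intervals clear of 0. The log2 ratio was 0.016 (interval 0.0080 to 0.0241) in SCD and -0.18 (interval -0.19 to -0.17) in HFD. The SCD value was -0.06 with the looser cell filter and -0.02 with classes from the leading hormone, so its direction depended on which cells were admitted. With a single library for every genotype and diet, no test of this opposite direction was run, and the HFD mice were also older.

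Ghrl gave a signal in barcodes that no comparison above used. A single barcode of HH SCD held 4070 Ghrl UMIs and a single barcode of WT HFD held 288, against 1 and 3 Ghrl UMIs in the whole WT SCD and HH HFD libraries. With doublets kept, the first fell in a beta-like and the second in a delta-like cluster. Whether each is 1 cell or a droplet with more than 1 cell was not tested.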

How the results depend on the processing

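Each group is 1 library, so no setting could leave out a replicate. No paired analysis was possible because each group has 1 library. The number of hormones called in beta-like cells was 1 in SCD and 2 in HFD at 2-fold, and 1 in SCD among genes with 100 or more UMIs, where Ghrl is no longer tested. In a hormone's own class it was 0 in SCD with 100 or more UMIs and 1 in HFD with 5 or more, both through Ghrl. The other settings left these counts within 1.5 times the reported ones. A similar count can hold other hormones: with doublets kept in SCD, Gcg in beta-like cells fell short of the call while Ppy passed 1.5-fold.

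The share of beta-like cells with a second hormone was 2.84% in WT SCD, 4.09% in HH SCD and 4.59% in HH HFD with doublets kept. With the hormones left out of clustering it was 0.393% in WT SCD and 0.999% in HH SCD. In that setting a cluster of 779 cells with 9 of 9 beta markers, led by Car15 and Aqp4, took no class name. Its 493 WT SCD and 278 HH SCD cells were therefore not counted as beta-like. At a limit of 0.3% of UMIs it was 2.57% in HH SCD and 2.67% in HH HFD. At 3% it was 0.643%, 0.807%, 0.352% and 1.02%, and without clusters 15 and 16 it was 0.309%, 0.895%, 0.090% and 0.258% (WT SCD, HH SCD, WT HFD, HH HFD). The cause of these shifts was not tested. HH was above WT in both diets in every setting run for this share.

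Over the settings, beta-like log2 ratios in HFD ranged from 0.68 to 2.40 for Gcg, 0.41 to 2.76 for Sst, 0.80 to 1.995 for Ppy and 0.53 to 1.43 for Pyy. In SCD they ranged from 0.10 to 1.05 for Gcg, -0.47 to 1.48 for Sst, -0.01 to 1.06 for Ppy and 0.06 to 0.89 for Pyy. For Ghrl in SCD the range was 5.05 to 12.06. Subtracting endothelial-like UMIs per cell gave no value for Gcg, Ppy and Pyy in SCD, where the difference was below 0 in a library. Depth limits Ghrl most, with 0 to 40 UMIs in beta-like cells.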
